A study of Homo sapiens with 12 samples.

Results

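The genes described here are the members of 10 families of developmental transcription factors: SOX, GATA, PAX, TBX, LHX, SIX-type, IRX, DLX, MSX and OTX. Members were the protein-coding genes of the deposited count table whose symbol is one of these family names followed only by digits, 77 of 58735 genes. The naming rule itself uses no measured value, though the families were picked with earlier results of these data known. No read was counted for 12 members, 17 had a mean of 3 counts or fewer in every arm, 5 lay above that but failed the filter on low counts, and 43 were tested.

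C4.2B is a human prostate cancer line descended from LNCaP, castration-resistant and listed by the paper as androgen-independent, and its polyadenylated RNA was sequenced. There were 4 arms of 3 libraries (A, B and C): DMSO vehicle, the AKT inhibitor ipatasertib at 0.25 µM (AKTi; labelled IPATA), the EZH2 inhibitor tazemetostat at 1 µM (EZH2i; labelled TAZ), and both agents at those doses (combination; labelled COMBO). The study asked which transcriptional changes each inhibitor caused alone and together. All 12 libraries were collected 24 hours after cells were moved to charcoal-stripped, androgen-poor serum, and the EZH2i and combination arms had received tazemetostat for 6 days before that. Every library comes from 1 established line, and replicates were plates seeded in triplicate, so p-values measure the spread between plates of the same cells. The libraries held 14133755 to 22276417 counts each.

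EZH2 is the catalytic subunit of Polycomb repressive complex PRC2, which methylates lysine 27 of histone H3. Genes for lineage-determining transcription factors, these families among them, are classic Polycomb targets: in differentiated tissues most of them carry the mark and are silent, and each tissue keeps a small set active. AKT is the kinase through which PI3K signaling drives growth. In the prostate, GATA2 is a pioneer factor that works with the androgen receptor, SOX9 takes part in the outgrowth of epithelial buds, and SOX4 and SOX2 have been linked to lineage plasticity in tumors.

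Stretches upstream of the RefSeq start sites of 3 members that rose under EZH2i (PAX2, SOX4 and LHX2) and 2 that fell (DLX1 and IRX4) are printed so that the sequence at genes that rose can be set beside that at genes that fell. Among members called under EZH2i that have a RefSeq promoter entry, these had the largest rises and falls. DLX5, GATA5, IRX6, SOX9 and PAX1 had no entry; the estimates of all but PAX1 were above that of SOX4 (SOX9 by less than its standard error), and that of PAX1 above that of LHX2. The sequences are RefSeq's on GRCh38.p14, each read 5′ to 3′ on the gene's strand, upstream bases only, with CG dinucleotides in capitals (the letters CG read the same on both strands). The PAX2 window is chr10:100735146-100735395 on the plus strand, the SOX4 window chr6:21593501-21593750 on the plus strand and the LHX2 window chr9:124011518-124011767 on the plus strand. The DLX1 stretch (chr2:172085257-172085311, plus strand, 55 bases) and the IRX4 stretch (chr5:1887237-1887331, minus strand, 95 bases) were trimmed to leave out GENCODE exons, so the last printed base lies 196 bases before the start site for DLX1 and 58 bases before it for IRX4; the others are 250 bases that end at the start site.
PAX2: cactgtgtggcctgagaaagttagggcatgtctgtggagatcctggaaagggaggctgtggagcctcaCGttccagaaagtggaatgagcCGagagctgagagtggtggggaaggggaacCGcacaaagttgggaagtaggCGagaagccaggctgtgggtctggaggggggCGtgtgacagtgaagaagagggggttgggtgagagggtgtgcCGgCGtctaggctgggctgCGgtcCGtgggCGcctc
SOX4: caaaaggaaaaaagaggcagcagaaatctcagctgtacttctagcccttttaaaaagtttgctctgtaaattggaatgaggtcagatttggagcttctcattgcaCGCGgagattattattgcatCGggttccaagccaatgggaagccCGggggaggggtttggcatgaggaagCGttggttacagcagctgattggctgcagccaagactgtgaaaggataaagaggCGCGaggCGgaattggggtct
LHX2: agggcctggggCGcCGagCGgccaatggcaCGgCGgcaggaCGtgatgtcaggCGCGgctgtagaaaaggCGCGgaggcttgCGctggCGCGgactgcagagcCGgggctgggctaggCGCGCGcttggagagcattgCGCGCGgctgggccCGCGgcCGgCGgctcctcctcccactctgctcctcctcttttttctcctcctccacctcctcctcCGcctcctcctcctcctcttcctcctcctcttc
DLX1: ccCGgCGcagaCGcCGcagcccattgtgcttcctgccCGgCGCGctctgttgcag
IRX4: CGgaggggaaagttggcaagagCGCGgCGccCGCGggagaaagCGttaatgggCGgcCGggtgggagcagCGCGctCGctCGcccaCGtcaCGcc
In the 250 upstream bases CG occurred 10 times for PAX2, 8 for SOX4, 25 for LHX2, 23 for DLX1 and 40 for IRX4 (7 and 15 in the printed stretches of DLX1 and IRX4, the rest in bases that include annotated exons), against a median of 18 (quartiles 7 and 26) over 14886 protein-coding genes with an entry. SOX4 and PAX2, which rose, lay below that median, and LHX2, which also rose, lay above it and above DLX1. DLX1 and IRX4, which fell, both lay above the median, and IRX4 had a CG count that 2.74% of promoters reached. Entries were found for 51 of the 77 members (66.2%), too few for a comparison of CG content over the members. The count table begins its SOX4, LHX2 and DLX1 genes before the printed stretches, which thus lie inside the counted genes. They hold no exon of the GENCODE release checked, which may differ from the annotation used for counting. The count table's SOX4 length of 5852 bases covers the gene's whole span, so the SOX4 window lies within counted bases.

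Of the 43 tested members, 33 reached the filter's cut-off of 0.639 CPM (counts scaled to the library's total) in all 3 DMSO libraries. The other 10 (DLX3, SOX6, TBX5, TBX2, SOX7, PAX2, DLX5, IRX6, GATA5 and GATA3) did not, and some of them passed through the arms where they are high, so the counts of calls below describe the tested members and are not evidence on all 77. Among them, GATA3, GATA5 and SOX6 reached the cut-off in all 3 libraries of the combination arm only. A mean above 3 counts was reached by 40 members in DMSO, 41 with AKTi, 46 with EZH2i and 46 with the combination. These are raw counts, not scaled to depth, and no share over all genes stands beside them. In the same order the numbers were 35, 35, 39 and 42 at a mean of at least 10 counts, and 29, 28, 30 and 28 at 30. Members without a single count were SOX1, SOX3, SOX17, PAX4, TBX18, TBX21, TBX22, LHX3, IRX1, DLX4, DLX6 and OTX2.

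In DMSO, levels per gene length (RPKM, mean ± SD, n = 3) were led by GATA2 at 78.4 ± 0.561, TBX3 at 50.9 ± 0.916, IRX4 at 25.9 ± 0.447, SOX12 at 25.4 ± 1.46 and SOX4 at 12.8 ± 0.790. IRX4 and SOX12 differed by less than 1 SD, and the steps between the other neighbours in this order were wider than their SDs. In the combination the order per length was GATA2 (90.8 ± 1.56), SOX4 (80.6 ± 0.208), TBX3 (59.4 ± 0.508), SOX12 (23.8 ± 1.21) and SOX9 (23.7 ± 0.771), the last pair within 1 SD of each other. SOX4 moved from rank 5 to rank 2, SOX9 from rank 12 to rank 5, PAX1 from rank 24 to rank 10, and IRX4 from rank 3 to rank 8. DLX1 went from rank 10 to rank 26. Summed over the family, SOX levels per length were 46.3 ± 0.605 RPKM in DMSO, 62.9 ± 1.95 with AKTi, 107 ± 6.44 with EZH2i and 134 ± 2.35 with the combination, and SIX-family levels were 7.35 ± 0.435, 7.16 ± 0.469, 8.87 ± 0.0454 and 14.4 ± 0.131 RPKM in the same order. IRX and DLX sums went down: IRX from 35.0 ± 0.307 to 26.7 ± 1.26 RPKM and DLX from 4.60 ± 0.284 to 1.96 ± 0.497 RPKM between DMSO and the combination, neither sum being tested. The sums follow a few abundant genes and are not changes of whole families. Between the same arms IRX4 went from 25.9 to 10.5 RPKM and DLX1 from 3.49 to 0.738, while IRX3 rose from 5.94 to 11.7 and IRX5 from 1.79 to 2.59. In the SOX sum, SOX4 went from 12.8 to 80.6 RPKM and SOX9 from 2.49 to 23.7.

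**Figure D1:**
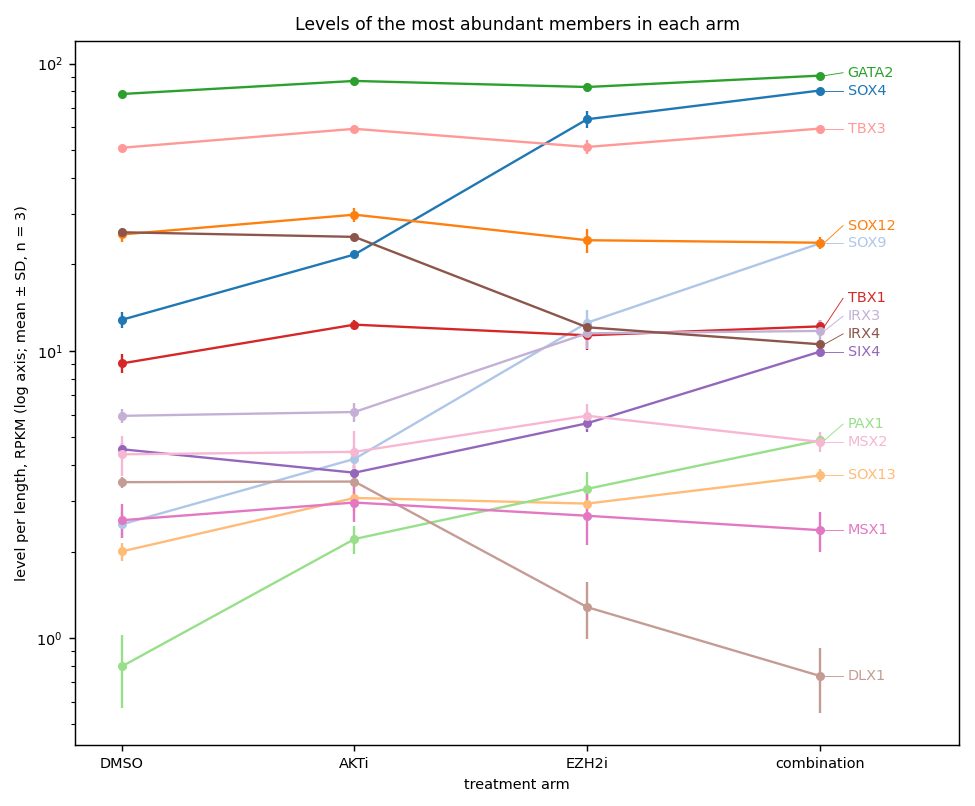
Level per gene length (RPKM, log axis) of the 14 most abundant members in the 4 arms, with points at the mean of 3 libraries and bars of ± SD. SOX4, SOX9 and PAX1 climb toward the combination, IRX4 and DLX1 descend in the EZH2i and combination arms, and GATA2 stays on top at 78.4 to 90.8 RPKM.

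Each arm was set against DMSO with edgeR's quasi-likelihood test on raw counts, with Benjamini-Hochberg adjustment over all 16646 genes tested and calls at an adjusted p below 0.05. With AKTi, 11 of 43 tested members rose and 1 fell, where 20.6% of all genes tested rose and 21.9% fell. With EZH2i, 21 rose and 4 fell (all genes: 32.6% rose, 31.5% fell). With the combination, 24 rose and 4 fell (all genes: 38% and 35.2%). The median log2 fold change of the 43 was 0.23 with AKTi, 0.44 with EZH2i and 0.53 with the combination, beside 0.01, 0.03 and 0.06 over all genes tested. As shares of the 43, 25.6%, 48.8% and 55.8% rose in these comparisons, beside 20.6%, 32.6% and 38% of all genes. The AKTi share was thus near that of all genes. Shares of the 43 that fell were 2.33%, 9.30% and 9.30%, each below the share of all genes. No difference between these shares was tested. The 3 comparisons share the DMSO libraries. In RNA from a culture, a change in the number of cells that express a gene and a change in RNA per cell cannot be told apart.

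Scaling factors moved with the arms: edgeR's TMM factors were 0.929 to 0.937 in DMSO, 0.965 to 0.979 with AKTi, 1.03 to 1.04 with EZH2i and 1.05 to 1.09 with the combination. Scaling by library size alone moved the median of all genes to 0.07 with AKTi, 0.17 with EZH2i and 0.26 with the combination, and the calls over all genes to 4112 higher and 3023 lower with AKTi (3429 and 3644 under TMM), to 6630 higher and 4193 lower with EZH2i (5421 and 5249 under TMM) and to 7574 higher and 4749 lower with the combination (6320 and 5866 under TMM). The members then split into 13 higher and 1 lower with AKTi, 23 higher and 3 lower with EZH2i and 27 and 3 with the combination, and no called member changed sign under any scaling. The part of this scale shift in the counts of calls was not tested further.

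**Figure D2:**
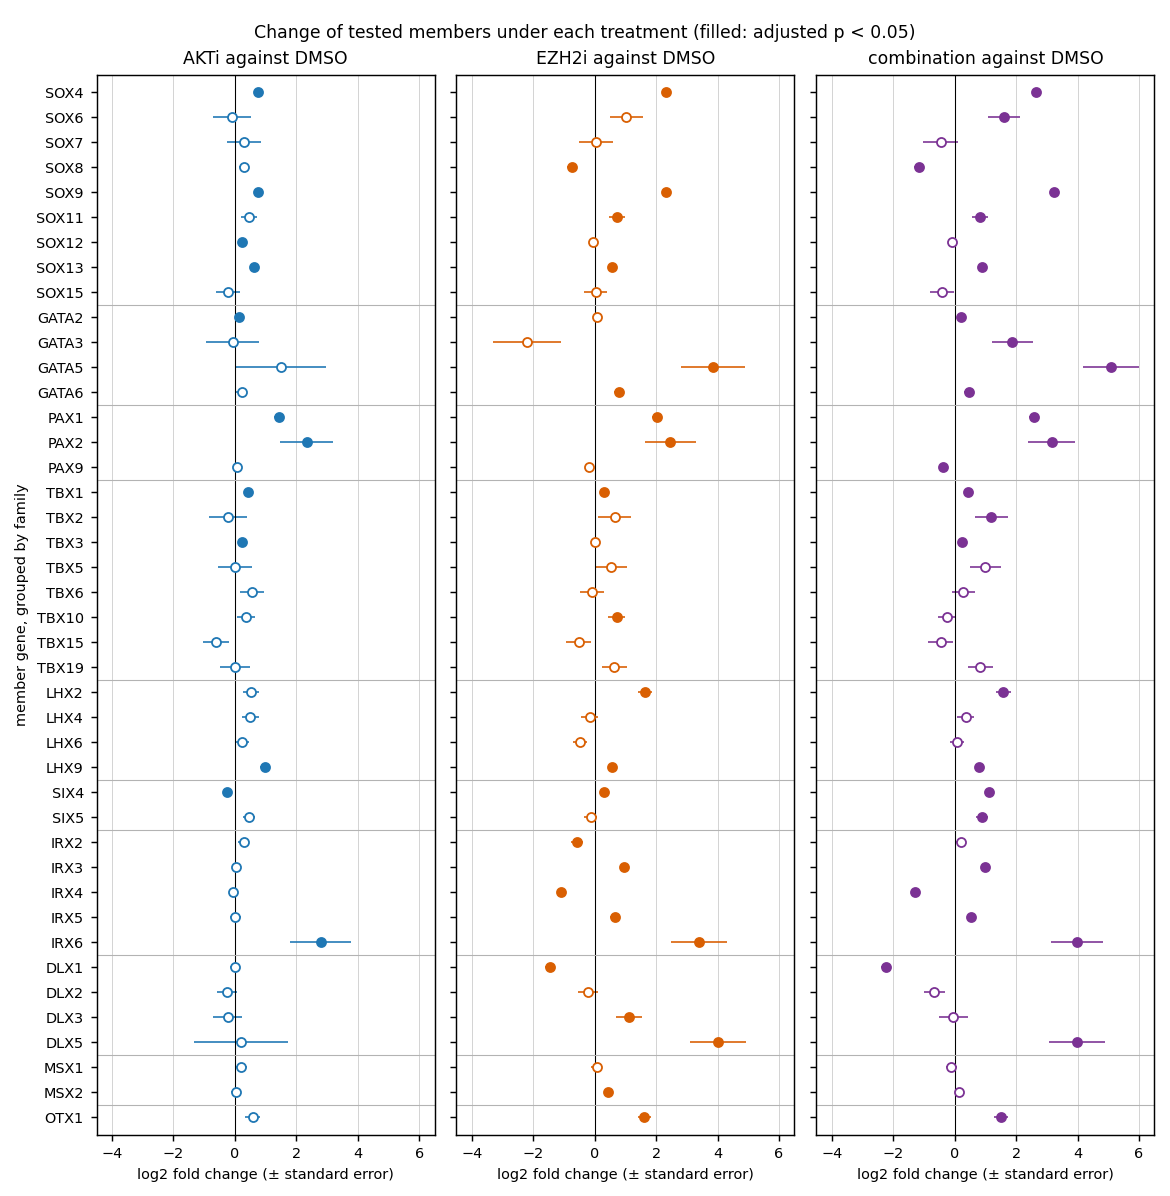
Log2 fold change (x axis, ± standard error) of 42 of the 43 tested members against DMSO, 1 panel per treatment and 1 line per gene, grouped by family, with filled points at an adjusted p below 0.05. Filled points lie mostly right of 0, and the exceptions left of 0 with the combination are SOX8, PAX9, IRX4 and DLX1.

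SOX genes encode HMG-box proteins that bend DNA, and 9 of 19 were tested. With EZH2i, 4 rose and 1 fell (all genes: 32.6% and 31.5%), and with the combination 5 rose and 1 fell (all genes: 38% and 35.2%). With 9 genes tested, these counts were not compared with the shares of all genes. SOX4 (ENSG00000124766, chr6:21592768-21598619 on hg38), a factor of progenitor cells, read 1296, 1143 and 1238 normalized counts in the DMSO libraries, 1992, 2053 and 2121 with AKTi, 6449, 5642 and 6148 with EZH2i and 7659, 7599 and 7558 with the combination. The 4 arms did not overlap and rose in that order. The log2 fold change was 0.76 ± 0.06 (adjusted p = 7.6e-13) with AKTi, 2.32 ± 0.06 (adjusted p = 8.9e-28) with EZH2i (4.99-fold) and 2.65 ± 0.06 (adjusted p = 2.7e-30) with the combination (6.29-fold). SOX9 (ENSG00000125398, chr17:72121020-72126420), needed for cartilage, testis and prostate buds, read 165, 139.8 and 175 normalized counts in the DMSO libraries, 288, 238 and 279 with AKTi, 737, 762 and 899.7 with EZH2i and 1537, 1526 and 1439.6 with the combination. Again no arm overlapped another. It rose 1.68-fold with AKTi (log2 0.74 ± 0.11, adjusted p = 6.6e-07), 5.01-fold with EZH2i (log2 2.32 ± 0.10, adjusted p = 1.4e-21) and 9.44-fold with the combination (log2 3.24 ± 0.09, adjusted p = 6.4e-27).

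SOX8, which belongs to the same subgroup as SOX9, went the other way. Its libraries read 155, 128 and 177 normalized counts in the DMSO libraries, 195, 194 and 178 with AKTi, 92.0, 100.5 and 84.2 with EZH2i and 71.4, 54.6 and 79.4 with the combination. DMSO and EZH2i did not overlap, and the lowest values were those of the combination. The log2 change was -0.74 ± 0.16 (adjusted p = 1.1e-04) with EZH2i and -1.15 ± 0.16 (adjusted p = 9.3e-08) with the combination, and 0.30 ± 0.15 (adjusted p = 0.11) with AKTi. SOX12, a SoxC gene like SOX4 and SOX11, read 1858, 2035 and 1870.1 normalized counts in the DMSO libraries, 2144, 2188 and 2382 with AKTi, 2023, 1709 and 1738 with EZH2i and 1803, 1852 and 1673 with the combination. It rose with AKTi, by log2 0.23 ± 0.07 (adjusted p = 0.0038), and the EZH2i and combination estimates were -0.07 ± 0.06 and -0.09 ± 0.06 (adjusted p = 0.38 and 0.20).

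Among the remaining SOX genes, SOX13 rose in every treated arm, by 0.63 with AKTi, 0.56 with EZH2i and 0.89 with the combination on the log2 scale (adjusted p = 7.5e-06, 1.4e-05 and 1.1e-09). SOX11, a neural SoxC factor, rose by 0.73 ± 0.26 with EZH2i (adjusted p = 0.014), a call lost without DMSO C or EZH2i B (from 0.53 to 0.58, adjusted p up to 0.10), and by 0.82 ± 0.26 with the combination (adjusted p = 0.0048), where its libraries overlap those of DMSO. SOX6, a partner of SOX9 in cartilage, rose with the combination only among the comparisons with DMSO (1.60 ± 0.51, adjusted p = 0.0055). SOX6 was tested only because its combination libraries, where it is high, passed the filter, so this call is no independent result. Its EZH2i libraries spread from 3.79 to 24.6 normalized counts. SOX7 and SOX15 passed no comparison. SOX2, a pluripotency factor, was too low to test, with 0, 0 and 0 raw counts in the DMSO libraries, 0, 0 and 0 with AKTi, 6, 1 and 1 with EZH2i and 0, 4 and 1 with the combination. Of the 8 EZH2i counts, 6 came from library A.

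GATA factors bind DNA through zinc fingers, and 4 of 6 were tested. GATA2 (ENSG00000179348, chr3:128479427-128493185), the most abundant member in every arm, read 5643, 5676 and 5808 normalized counts in the DMSO libraries, 6027, 6380.0 and 6486 with AKTi, 6241, 5854 and 5903 with EZH2i and 6561, 6629 and 6399.8 with the combination. The shifts were small: 0.15 ± 0.05 (adjusted p = 0.015) with AKTi, 0.08 ± 0.05 (adjusted p = 0.16) with EZH2i and 0.21 ± 0.05 (adjusted p = 2.9e-04) with the combination. The AKTi call was lost without DMSO B, AKTi B or AKTi C (from 0.12 to 0.13, adjusted p up to 0.12) and with every gene of at least 1 count kept (0.15, adjusted p = 0.076). GATA6, an endoderm factor, rose by 0.78 ± 0.16 with EZH2i (adjusted p = 8.8e-05) and by 0.47 ± 0.17 with the combination (adjusted p = 0.012; lost without DMSO A at 0.37, adjusted p = 0.071).

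GATA3, a luminal factor of breast epithelium, was near the floor, at 2, 1 and 7 raw counts in the DMSO libraries, 1, 6 and 1 with AKTi, 0, 2 and 0 with EZH2i and 13, 13 and 14 with the combination. The combination libraries lay above the other 9. GATA3 was tested only because those libraries passed the filter, so its calls for the combination are no independent result. Against DMSO the combination changed GATA3 by 1.88 ± 0.68 (adjusted p = 0.013), lost without DMSO B (1.53, adjusted p = 0.062) and with every gene of at least 1 count kept (1.88, adjusted p = 0.051), and the EZH2i estimate was -2.19 ± 1.11 (adjusted p = 0.083). GATA5, of heart and gut endoderm, held 0, 0 and 1 raw counts in the DMSO libraries, 2, 0 and 1 with AKTi, 4, 10 and 7 with EZH2i and 18, 22 and 10 with the combination. The EZH2i and combination libraries were all above the DMSO and AKTi libraries. Both comparisons with DMSO were called (adjusted p = 0.0016 and 6.9e-06). GATA5 too was tested only because its combination libraries, where it is high, passed the filter, so its calls are no independent result. From 1 count in DMSO, the ratio of scaled summed counts was 19.2 (95% interval 3.09 to 795) with EZH2i and 45.9 (95% interval 7.87 to 1849) with the combination. Here and below, an arm's summed counts were divided by its summed library totals, each multiplied by its TMM factor. The exact intervals cover counting error only, here and below.

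PAX proteins carry a paired DNA-binding domain, and 3 of 9 were tested. PAX1 (ENSG00000125813, chr20:21705659-21718486), of the sclerotome and thymus, read 72.2, 56.2 and 100.4 normalized counts in the DMSO libraries, 189, 237 and 204 with AKTi, 342, 262 and 338 with EZH2i and 473, 470.3 and 438 with the combination. No arm overlapped another. PAX1 rose 2.70-fold with AKTi (log2 1.43 ± 0.15, adjusted p = 1.3e-09), 4.04-fold with EZH2i (log2 2.01 ± 0.15, adjusted p = 1.2e-14) and 5.96-fold with the combination (log2 2.58 ± 0.14, adjusted p = 2.2e-18). PAX9, the close relative of PAX1, read 211, 199.6 and 242 normalized counts in the DMSO libraries, 215, 237 and 231 with AKTi, 193, 204 and 179 with EZH2i and 177, 136 and 182 with the combination. Its combination call, -0.38 ± 0.13 (adjusted p = 0.0076), was lost without DMSO C or combination B (from -0.30 to -0.26, adjusted p up to 0.078) and on library size alone and under upper-quartile scaling (-0.20 to -0.19, adjusted p up to 0.19), and the single agents gave 0.07 ± 0.13 and -0.18 ± 0.13 (adjusted p = 0.70 and 0.21). PAX1 made up 26.1% of the family's summed level per length in DMSO and 72.5% in the combination, and PAX9 72.3% and 25.2%.

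PAX2, a kidney and genital tract factor, held 0, 3 and 1 raw counts in the DMSO libraries, 2, 12 and 5 with AKTi, 7, 10 and 9 with EZH2i and 12, 11 and 19 with the combination. EZH2i and combination libraries were above those of DMSO, whereas AKTi overlapped them. The ratio to DMSO of scaled summed counts was 5.51 (95% interval 1.83 to 22.3) with AKTi, 5.95 (95% interval 2.06 to 23.5) with EZH2i and 9.64 (95% interval 3.50 to 37.0) with the combination (edgeR adjusted p = 0.027, 0.0097 and 4.7e-04). Fitted log2 changes were 2.34, 2.46 and 3.15, and the AKTi call was lost without DMSO A, DMSO C or AKTi B (from 1.49 to 1.99, adjusted p up to 0.27), the EZH2i call without DMSO A or DMSO C (from 1.96 to 2.12, adjusted p up to 0.054).

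T-box factors act in limb, heart and pharyngeal development, and 8 of 13 were tested. TBX3, a repressor of limb and mammary development, was the second most abundant member, at 4842, 4918 and 5092 normalized counts in the DMSO libraries, 5657, 5869 and 5646 with AKTi, 5241, 4729 and 4879.6 with EZH2i and 5758, 5630.3 and 5710.0 with the combination. AKTi and combination libraries lay above all DMSO libraries, and EZH2i overlapped DMSO. The changes were 0.22 ± 0.05 (adjusted p = 6.4e-04) with AKTi, 0.01 ± 0.05 (adjusted p = 0.88) with EZH2i and 0.22 ± 0.05 (adjusted p = 2.1e-04) with the combination. TBX1, of the pharyngeal arches, rose in all 3 arms, by 0.44 ± 0.08, 0.31 ± 0.08 and 0.42 ± 0.08 (adjusted p = 4.2e-05, 0.0012 and 2.3e-05).

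TBX10 read 31.7, 31.1 and 35.6 normalized counts in the DMSO libraries, 42.0, 37.6 and 46.3 with AKTi, 68.2, 53.1 and 41.0 with EZH2i and 33.6, 19.4 and 29.1 with the combination. It was called higher with EZH2i (0.71 ± 0.27, adjusted p = 0.024), a call lost without DMSO A, DMSO B or EZH2i A (from 0.51 to 0.69, adjusted p up to 0.15), and the combination libraries overlapped DMSO (-0.24 ± 0.29, adjusted p = 0.47). TBX2, the paralog of TBX3, was called with the combination (1.19 ± 0.52, adjusted p = 0.040), with overlapping libraries; the call was lost without DMSO B, DMSO C, combination B or combination C (from 0.84 to 1.11, adjusted p up to 0.18) and with DESeq2 and with every gene of at least 1 count kept (1.16 to 1.20, adjusted p up to 0.053). TBX5 (forelimb and heart), TBX6 (paraxial mesoderm), TBX15 (skeleton) and TBX19 (pituitary corticotrophs) passed no comparison.

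LHX proteins join LIM domains to a homeodomain, and 4 of 8 were tested. LHX2, of forebrain, eye and hair follicle, had the highest DMSO level per length in its family and read 59.1, 17.9 and 39.5 normalized counts in the DMSO libraries, 57.1, 51.2 and 61.0 with AKTi, 116, 146 and 105 with EZH2i and 135, 106 and 107 with the combination. The DMSO libraries spread from 17.9 to 59.1, yet all EZH2i and combination libraries were above them. LHX2 rose 3.13-fold with EZH2i (log2 1.64 ± 0.23, adjusted p = 1.3e-07) and by log2 1.58 ± 0.23 (adjusted p = 2.0e-07) with the combination, and the AKTi estimate was 0.53 ± 0.26 (adjusted p = 0.097).

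LHX9, a gonadal ridge factor, had its highest arm mean with AKTi and read 131, 118 and 129 normalized counts in the DMSO libraries, 275, 217 and 244 with AKTi, 204, 176 and 178 with EZH2i and 245, 188 and 212 with the combination. All treated libraries were above those of DMSO. The changes were 0.97 ± 0.14 (adjusted p = 2.6e-07) with AKTi, 0.56 ± 0.14 (adjusted p = 4.6e-04) with EZH2i and 0.79 ± 0.13 (adjusted p = 2.5e-06) with the combination. LHX4 and LHX6, of pituitary and cortical interneurons, were not called against DMSO. LHX6 was higher with the combination than with EZH2i (0.55 ± 0.22, adjusted p = 0.039), a call lost without EZH2i A, EZH2i B, combination A or combination C (from 0.42 to 0.58, adjusted p up to 0.17) and with every gene of at least 1 count kept (0.53, adjusted p = 0.080).

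SIX-family homeodomain proteins bind EYA co-activators in muscle, kidney and sensory organs, and 3 of 6 were tested. SIX4 (ENSG00000100625, chr14:60709528-60724348) read 466, 515 and 501 normalized counts in the DMSO libraries, 398, 385 and 437 with AKTi, 580.5, 579 and 653 with EZH2i and 1096, 1028 and 1073 with the combination. AKTi libraries were below all DMSO libraries, EZH2i libraries above them, and combination libraries higher still. The log2 changes were -0.27 ± 0.08 (adjusted p = 0.0083) with AKTi, 0.30 ± 0.08 (adjusted p = 1.0e-03) with EZH2i and 1.13 ± 0.08 (adjusted p = 7.9e-16) with the combination (2.19-fold). SIX5, next to the myotonic dystrophy kinase gene, rose with the combination (0.90 ± 0.20, adjusted p = 1.1e-04) and gave 0.47 ± 0.21 and -0.13 ± 0.21 with the single agents (adjusted p = 0.066 and 0.61).

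Iroquois (IRX) homeobox genes pattern neural, heart and limb tissue, and 5 of 6 were tested. IRX4 (ENSG00000113430, chr5:1877413-1887236), a heart ventricle factor, read 1164, 1182 and 1222 normalized counts in the DMSO libraries, 1131, 1144 and 1140.3 with AKTi, 575, 549 and 531 with EZH2i and 486, 479.5 and 469.9 with the combination. EZH2i and combination libraries were all at 575 normalized counts or fewer, against at least 1131 in the other 6. IRX4 fell to 0.466 of its DMSO level with EZH2i (log2 -1.10 ± 0.07, adjusted p = 8.4e-17) and to 0.408 with the combination (log2 -1.29 ± 0.07, adjusted p = 3.7e-19); AKTi gave -0.05 ± 0.06 (adjusted p = 0.54).

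IRX3, IRX5 and IRX6 moved the opposite way to IRX4. IRX3 rose by 0.95 ± 0.10 with EZH2i and 0.98 ± 0.10 with the combination (adjusted p = 1.4e-10 and 3.8e-11), and IRX5 by 0.66 ± 0.16 and 0.54 ± 0.16 (adjusted p = 4.4e-04 and 0.0027). IRX6 held 0, 2 and 0 raw counts in the DMSO libraries, 2, 7 and 5 with AKTi, 7, 11 and 9 with EZH2i and 20, 9 and 12 with the combination. EZH2i and combination libraries were above DMSO, and AKTi overlapped it. The ratio to DMSO of scaled summed counts was 8.12 (95% interval 1.86 to 73.6) with AKTi, 12.4 (95% interval 3.10 to 107) with EZH2i and 18.8 (95% interval 4.89 to 161) with the combination (edgeR adjusted p = 0.023, 0.0014 and 9.1e-05). The AKTi call was lost without DMSO A, DMSO C or AKTi B (from 2.10 to 2.37, adjusted p up to 0.12). IRX2 read 77.7, 74.1 and 84.6 normalized counts in the DMSO libraries, 107, 75.1 and 105 with AKTi, 47.6, 57.8 and 52.9 with EZH2i and 83.7, 94.4 and 90.1 with the combination. It fell with EZH2i (-0.57 ± 0.20, adjusted p = 0.012), a call lost on library size alone (-0.42, adjusted p = 0.060), and gave 0.20 ± 0.19 (adjusted p = 0.35) with the combination.

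DLX genes specify forebrain interneurons, teeth and the facial skeleton, and 4 of 6 were tested. DLX1 (ENSG00000144355, chr2:172084740-172089677) read 218, 198 and 209 normalized counts in the DMSO libraries, 208, 209 and 207 with AKTi, 94.2, 60.7 and 73.0 with EZH2i and 41.0, 55.5 and 33.9 with the combination. DMSO and AKTi overlapped, EZH2i was lower, and the combination lower again. DLX1 fell to 0.365 of its DMSO level with EZH2i (log2 -1.45 ± 0.16, adjusted p = 6.0e-10) and to 0.212 with the combination (log2 -2.24 ± 0.17, adjusted p = 3.7e-14). DLX2 gave -0.66 ± 0.33 (adjusted p = 0.073) with the combination. DLX3, of skin and hair, was called with EZH2i (1.13 ± 0.42, adjusted p = 0.020; lost without DMSO A, DMSO C or EZH2i A at 0.82 to 1.02, adjusted p up to 0.13). DLX5, a bone and facial skeleton factor, held 0, 0 and 2 raw counts in the DMSO libraries, 0, 1 and 1 with AKTi, 9, 22 and 9 with EZH2i and 15, 20 and 5 with the combination. All EZH2i and combination libraries were above the DMSO and AKTi libraries. The ratio to DMSO of scaled summed counts was 18.3 (95% interval 4.75 to 156) with EZH2i and 18.4 (95% interval 4.76 to 157) with the combination (edgeR adjusted p = 2.0e-04 and 1.8e-04).

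MSX genes are homeobox repressors of craniofacial development, and both were tested. MSX2 read 185, 133 and 168 normalized counts in the DMSO libraries, 167, 192 and 132 with AKTi, 201, 244 and 212 with EZH2i and 176, 191 and 163 with the combination. EZH2i libraries were above all DMSO libraries, giving 0.44 ± 0.14 (adjusted p = 0.0062), a call lost without DMSO B (0.28, adjusted p = 0.099). MSX1 passed no comparison. OTX1, of the forebrain and the 1 of 2 OTX genes tested, read 31.7, 28.7 and 34.0 normalized counts in the DMSO libraries, 54.8, 36.4 and 49.7 with AKTi, 97.5, 97.6 and 94.6 with EZH2i and 77.1, 87.0 and 105 with the combination. All treated libraries were above those of DMSO. OTX1 rose 3.06-fold with EZH2i (log2 1.61 ± 0.22, adjusted p = 4.3e-08) and 2.85-fold with the combination (log2 1.51 ± 0.22, adjusted p = 1.3e-07), and AKTi gave 0.58 ± 0.24 (adjusted p = 0.051).

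**Figure D3:**
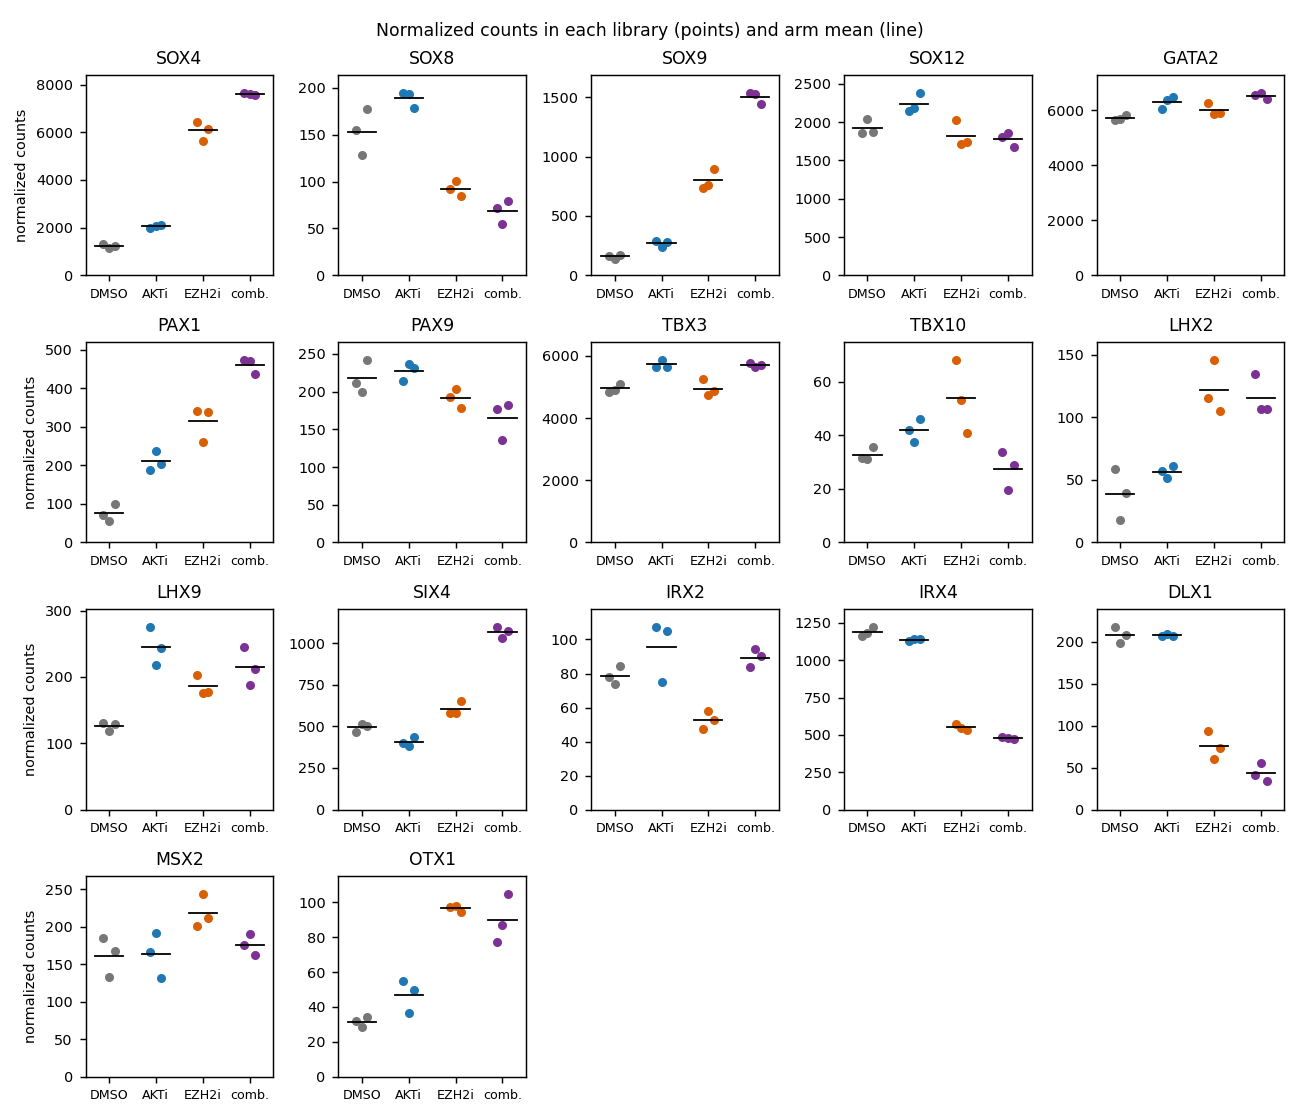
Normalized counts (y axis, linear from 0) of 17 named members in each of the 12 libraries, by arm, with a line at the arm mean. SOX4, SOX9 and PAX1 step upward over the arms, IRX4 and DLX1 step downward at EZH2i, and the combination points of SIX4 lie above the points of every other arm.

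DLX5, GATA5, IRX6 and PAX2, each near 0 in DMSO, rose in both tazemetostat arms. They were chosen as called members with a DMSO mean of 3 counts or fewer. From such a level a member can hardly be called except as higher, so their shared direction follows from the choice. With DMSO at 1, 2 or 4 counts over the arm, the fitted log2 changes rest on those few counts and are no bounds. Leaving out the DMSO library that held them (C for DLX5 and GATA5, B for IRX6 and, with 3 of its 4 counts, PAX2) raised the EZH2i estimate from 4.01 to 6.63 for DLX5, from 3.85 to 5.69 for GATA5, from 3.40 to 6.10 for IRX6 and from 2.46 to 3.77 for PAX2. It also raised the combination estimates of DLX5 (to 6.60) and IRX6 (to 6.68) and the AKTi estimates of IRX6 (to 5.51) and PAX2 (to 3.67). Summed over the 34 members that were not tested, CPM were 0.943 to 1.37 in the DMSO libraries, 1.08 to 1.76 with AKTi, 1.98 to 2.47 with EZH2i and 2.18 to 2.59 with the combination. The tazemetostat arms lay above all DMSO and AKTi libraries in this sum, which was not tested. PAX8, a kidney and thyroid factor, accounts for part of it with 0, 1 and 3 raw counts in the DMSO libraries, 2, 4 and 3 with AKTi, 4, 3 and 19 with EZH2i and 2, 6 and 0 with the combination, and 19 of its 26 EZH2i counts came from library C. SIX3, of the forebrain and eye, held 1, 1 and 3 raw counts in the DMSO libraries, 0, 2 and 1 with AKTi, 6, 4 and 6 with EZH2i and 11, 8 and 2 with the combination, a ratio to DMSO of 2.93 (95% interval 1.03 to 10.2) with EZH2i and 3.86 (95% interval 1.41 to 13.1) with the combination. GATA1, of red blood cells, held 2, 1 and 0 raw counts in the DMSO libraries, 2, 0 and 0 with AKTi, 0, 1 and 11 with EZH2i and 1, 8 and 0 with the combination. LHX5 had no count in DMSO and 14 in the combination, 11 of them in library C. SIX2 went from 19 counts in DMSO to 13 in the combination, TBX4 from 9 to 0, and the 6 counts of PAX5 were all in DMSO B.

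**Figure D4:**
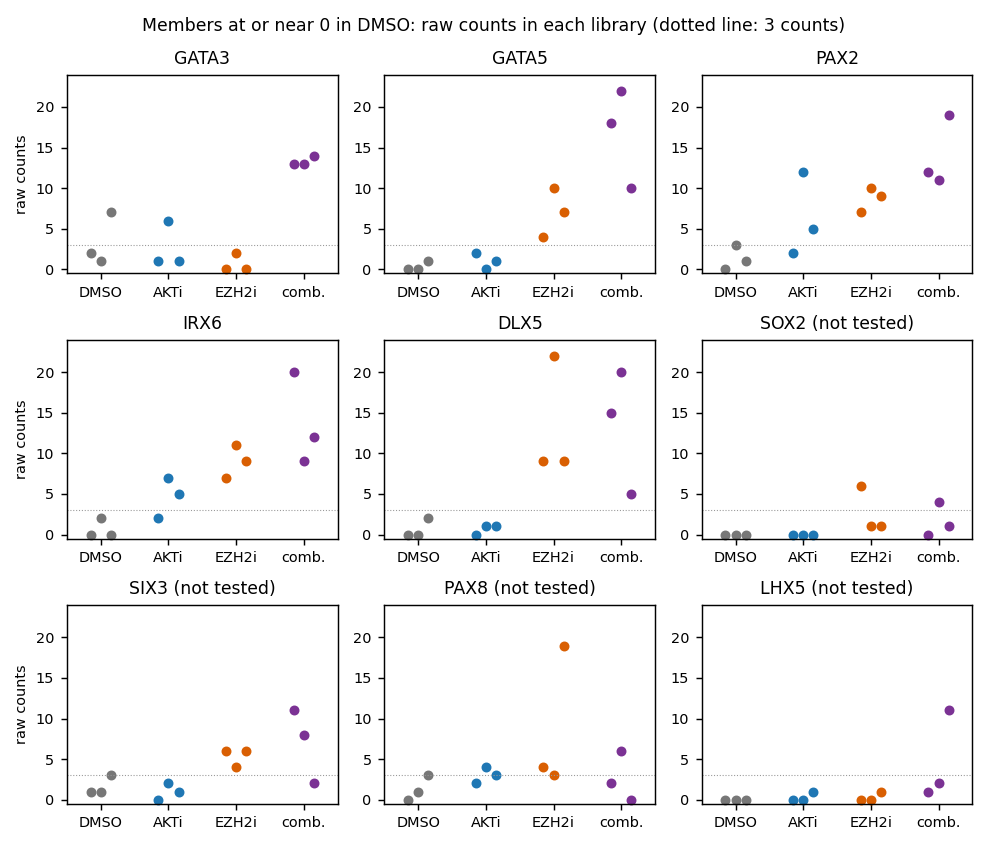
Raw counts (y axis) of 9 members at or near 0 in DMSO, 1 point per library and 1 panel per gene, with a dotted line at 3 counts. GATA5, PAX2, IRX6 and DLX5 have all EZH2i and combination libraries above their DMSO libraries, and single libraries hold most counts of PAX8 (EZH2i C) and LHX5 (combination C).

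The combination was next compared with each single agent. Against AKTi alone, 16 of 43 members were higher and 5 lower (all genes: 32.1% and 32.1%), and against EZH2i alone 11 were higher and 5 lower (all genes: 21.1% and 25.7%). Median log2 differences of the 43 were 0.24 and 0.12, beside 0.04 and -0.01 over all genes. On library size alone the all-gene median against AKTi was 0.17 and all-gene calls were 6544 higher and 4330 lower (5344 and 5343 under TMM), with members at 20 and 5; against EZH2i they were 4069 and 3687 (3506 and 4275 under TMM), with members at 11 and 3. Over EZH2i alone, the combination was higher for SOX9 (0.91 ± 0.08, adjusted p = 2.5e-12), SIX4 (0.83 ± 0.07, adjusted p = 1.1e-11), SIX5 (1.03 ± 0.20, adjusted p = 4.0e-05), PAX1 (0.56 ± 0.12, adjusted p = 1.8e-04) and SOX4 (0.33 ± 0.05, adjusted p = 3.2e-06). GATA3 was also higher (4.08 ± 0.89, adjusted p = 2.5e-04; 6.65 without EZH2i B, which held both EZH2i counts), with 2 counts over the EZH2i arm and 40 over the combination arm. TBX3 (0.21 ± 0.05, adjusted p = 7.1e-04), IRX2 (0.76 ± 0.19, adjusted p = 0.0012), LHX6, SOX13 (0.32 ± 0.10, adjusted p = 0.0062) and GATA2 (0.13 ± 0.05, adjusted p = 0.029) were higher as well. The SOX13 call was lost without EZH2i B (0.25, adjusted p = 0.054). The GATA2 call was lost without EZH2i B, EZH2i C, combination A or combination B (from 0.11 to 0.13, adjusted p up to 0.10) and with every gene of at least 1 count kept (0.11, adjusted p = 0.24). Lower than with EZH2i alone were DLX1 (-0.78 ± 0.19, adjusted p = 8.4e-04), TBX10 (-0.95 ± 0.28, adjusted p = 0.0047), DLX3 (-1.17 ± 0.42, adjusted p = 0.021), IRX4 (-0.19 ± 0.07, adjusted p = 0.024) and SOX8 (-0.42 ± 0.17, adjusted p = 0.045). The DLX3 call was lost without EZH2i A, combination A or combination C (from -1.06 to -0.97, adjusted p up to 0.093). The IRX4 call was lost without EZH2i A or combination C (from -0.18 to -0.16, adjusted p up to 0.084) and on library size alone, under upper-quartile scaling, with at least 10 counts required in every library and with only the 6 libraries compared (-0.18 to -0.13, adjusted p up to 0.13). The SOX8 call was lost without AKTi A, AKTi B, EZH2i A, EZH2i B, combination A or combination B (from -0.44 to -0.28, adjusted p up to 0.23) and with DESeq2, on library size alone, under upper-quartile scaling, with every gene of at least 1 count kept, with at least 10 counts required in every library and with only the 6 libraries compared (-0.44 to -0.35, adjusted p up to 0.092).

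Against AKTi alone, the combination was higher for SOX9 (2.49 ± 0.09, adjusted p = 1.3e-23), SOX4 (1.90 ± 0.06, adjusted p = 8.5e-26), SIX4 (1.40 ± 0.08, adjusted p = 8.5e-18), PAX1 (1.14 ± 0.13, adjusted p = 6.7e-10), LHX2 (1.05 ± 0.23, adjusted p = 1.2e-04), OTX1 (0.94 ± 0.21, adjusted p = 2.1e-04) and IRX3 (0.94 ± 0.10, adjusted p = 2.4e-10). Lower were DLX1 (-2.24 ± 0.18, adjusted p = 7.7e-14), SOX8 (-1.45 ± 0.16, adjusted p = 7.9e-10), IRX4 (-1.24 ± 0.07, adjusted p = 4.1e-18), PAX9 (-0.45 ± 0.13, adjusted p = 0.0025) and SOX12 (-0.32 ± 0.06, adjusted p = 4.5e-05). Further higher calls included IRX5, SOX13, SIX5, SOX6, TBX2, DLX5, GATA5 and GATA3. The SOX13 call was lost without AKTi A, AKTi B, combination A or combination B (from 0.18 to 0.25, adjusted p up to 0.15) and with every gene of at least 1 count kept (0.24, adjusted p = 0.078). The GATA3 call was lost without AKTi A or AKTi C (from 1.56 to 1.57, adjusted p up to 0.081) and with every gene of at least 1 count kept (1.93, adjusted p = 0.061), and its estimate rose from 1.95 to 3.26 without AKTi B. The TBX2 call was lost without AKTi B, combination B or combination C (from 1.00 to 1.22, adjusted p up to 0.14). The SIX5 call was lost without DMSO A, DMSO B, AKTi A, AKTi B or combination B (from 0.26 to 0.43, adjusted p up to 0.30) and with DESeq2, with every gene of at least 1 count kept and with the replicate block (0.41 to 0.43, adjusted p up to 0.099).

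Whether the agents' effects added up was tested as the interaction, the combination's log2 change minus the sum of the single-agent changes. It was called above 0 for 2 of 43 members and below 0 for 8 (all genes: 10.7% and 17.5%), with a median of -0.23, beside -0.05 over all genes. SIX4 exceeded the sum by 1.10 ± 0.11 (edgeR quasi-likelihood, adjusted p = 1.1e-09). Its single-agent changes had opposite signs. GATA3 exceeded it by 4.14 ± 1.32 (adjusted p = 0.016) on a few counts, and was tested only because its combination libraries passed the filter. The GATA3 call was lost without DMSO C or EZH2i C (from 3.28 to 3.50, adjusted p up to 0.15), and the estimate was 6.72 without EZH2i B. SOX4 (-0.42 ± 0.08, adjusted p = 1.0e-04), PAX1 (-0.87 ± 0.20, adjusted p = 7.8e-04) and LHX9 (-0.74 ± 0.19, adjusted p = 0.0022) rose with each agent, and by less than the sum with both. DLX1 (-0.79 ± 0.24, adjusted p = 0.012) and SOX8 (-0.72 ± 0.23, adjusted p = 0.016) fell further than the sum. The DLX1 call was lost without EZH2i A or combination C (from -0.65 to -0.62, adjusted p up to 0.059), and the SOX8 call without DMSO B or combination B (from -0.58 to -0.57, adjusted p up to 0.069).

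TBX10 lay below the sum by the widest margin among the called members (-1.31 ± 0.40, adjusted p = 0.012): its single-agent estimates were both above 0 and the combination's below. For TBX1 (-0.33 ± 0.12, adjusted p = 0.029) the call was lost without DMSO A, DMSO B, AKTi B, AKTi C, EZH2i A, EZH2i B or combination C (from -0.32 to -0.26, adjusted p up to 0.13), and for SOX12 (-0.26 ± 0.09, adjusted p = 0.033) without DMSO A, DMSO C, AKTi B, AKTi C, EZH2i A or combination C (from -0.24 to -0.18, adjusted p up to 0.13) and with at least 10 counts required in every library (-0.23, adjusted p = 0.052). SOX9, with the steepest climb of the abundant members, gave an interaction of 0.17 ± 0.14 (adjusted p = 0.39), and IRX4 -0.14 ± 0.10 (adjusted p = 0.30).

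**Figure D5:**
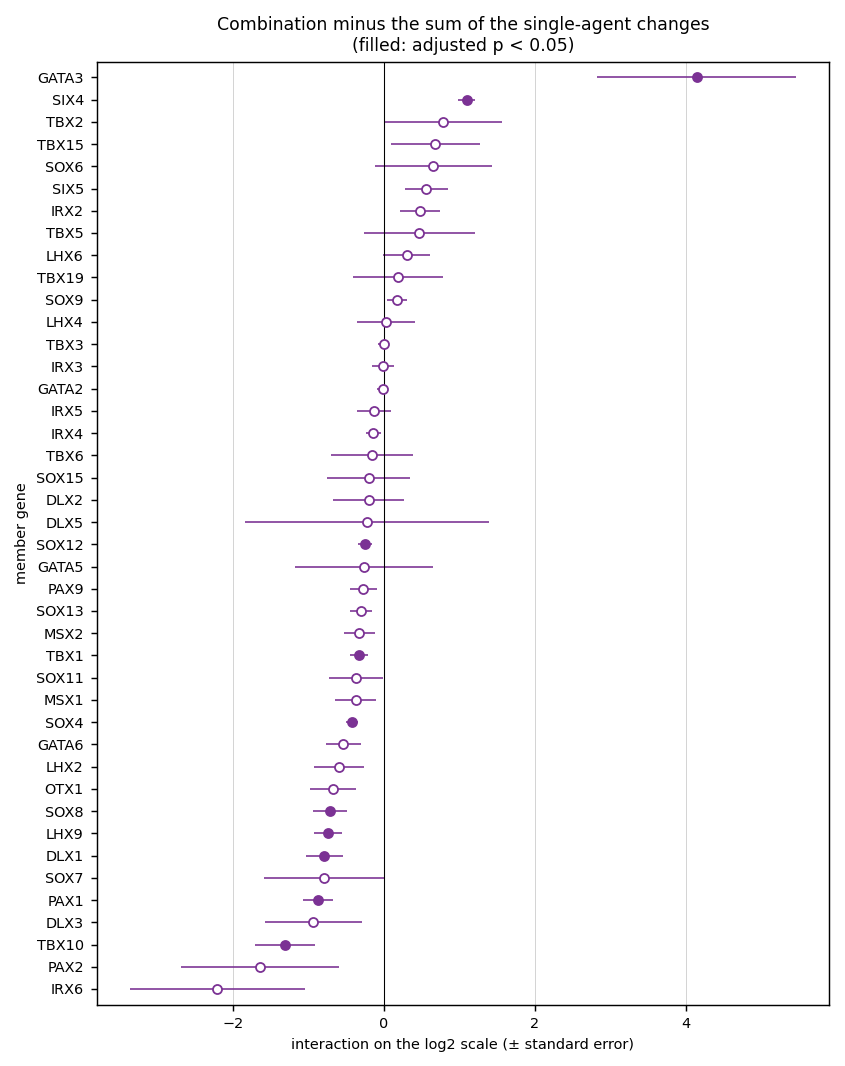
Interaction (x axis, log2 scale, ± standard error) for 42 of the 43 tested members, ordered by value, with filled points at an adjusted p below 0.05. SIX4 (1.10) and GATA3 (4.14) are filled to the right of 0, and 8 members from SOX12 (-0.26) to TBX10 (-1.31) are filled to its left.

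Several members sit side by side in conserved clusters, and their values are set side by side here with no test between neighbours. DLX1 and DLX2, annotated on opposite strands with 9761 bases between them on chromosome 2, gave -2.24 and -0.66 (log2) with the combination. With EZH2i they gave -1.45 and -0.21, and DLX2 was called in neither comparison. DLX5 gained counts while DLX6, 9352 bases away on chromosome 7, had none in any library, and DLX3 was measured while DLX4, 15045 bases away on chromosome 17, had none. In the cluster on chromosome 5, IRX4 and IRX2 fell with EZH2i (-1.10 and -0.57) and IRX1 had no count. With the combination IRX4 and IRX2 gave -1.29 and 0.20, the second not called. In the cluster on chromosome 16, IRX3, IRX5 and IRX6 all rose with EZH2i (0.95, 0.66 and 3.40).

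Noncoding genes named for members were read from their own identifiers. GATA2-AS1, which overlaps GATA2 on the opposite strand, read 1138, 1169 and 1099.9 normalized counts in DMSO, 1072, 1113 and 1113 with AKTi, 1458, 1339 and 1431 with EZH2i and 1397, 1482 and 1320.5 with the combination. It rose by 0.32 ± 0.06 with EZH2i (adjusted p = 2.8e-05) and by 0.32 ± 0.06 with the combination (adjusted p = 2.1e-05), where GATA2 itself moved by 0.08 and 0.21. SOX2-OT, a long transcript that spans SOX2, held 9 counts over the DMSO arm and 37 over the combination, 21 of them in library A (1.81 ± 0.73, adjusted p = 0.026), and the libraries of the arms overlap. SOX9-AS1 had no count in the 6 DMSO and AKTi libraries, and held 4, 6 and 2 counts with EZH2i and 3, 13 and 8 with the combination. Whether the counting used strand is not given, so reads of a gene and its antisense partner may not be separated.

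Genes that work with the families were counted from lists that, like the families, were chosen with earlier results known. Beside the list counts here and below stand the shares of all genes: 20.6% higher and 21.9% lower with AKTi, 32.6% and 31.5% with EZH2i, and 38% and 35.2% with the combination. Of the SIX-family partners (EYA and DACH genes), 2 of 6 were tested and both rose with EZH2i. EYA2, a phosphatase and co-activator, read 44.8, 19.1 and 48.2 normalized counts in DMSO and 144, 129 and 141 with EZH2i, with no overlap (1.85 ± 0.20, adjusted p = 5.3e-10), and EYA3 rose by 0.38 ± 0.08 (adjusted p = 5.0e-05). Of 12 listed partners and LIM-homeodomain relatives of LHX factors, 7 were tested. With EZH2i 6 rose and 1 fell, with the combination 6 rose, and with AKTi 2 rose and 1 fell. LMO2, an adaptor in blood GATA complexes, went from 4.38, 0 and 1.58 to 26.0, 12.3 and 15.6 normalized counts with EZH2i (3.09 ± 0.65, adjusted p = 7.8e-05), SSBP2 rose by 1.16 ± 0.12 (adjusted p = 5.2e-11), and LMX1B by 0.96 ± 0.15 (adjusted p = 4.5e-07). The LMO2 fold rests on a DMSO level near 0, and LMO2 passed the filter only through the tazemetostat arms, where it is high. Median log2 changes with EZH2i were 1.12 for the 2 tested SIX-family partners and 0.81 for the 7 tested partners and relatives of LHX factors, beside 0.03 over all genes.

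Of 5 GATA cofactors, 3 were tested and 2 rose with EZH2i and with the combination. TRPS1, a repressor that binds GATA sites, read 101, 102 and 116 normalized counts in DMSO, 461, 470.2 and 431 with EZH2i and 610.4, 603 and 575 with the combination, and rose by 2.10 ± 0.11 (adjusted p = 2.1e-18) and 2.50 ± 0.11 (adjusted p = 2.2e-21). ZFPM2, the GATA partner also called FOG2, rose by 1.07 ± 0.21 with the combination (adjusted p = 3.4e-05). Among the TCF and LEF factors, HMG-box relatives of SOX proteins that carry Wnt signals, 3 of 4 were tested and 2 rose with EZH2i. LEF1 read 102, 90.8 and 108 in DMSO, 93.3, 72.9 and 77.9 with AKTi, 209, 238 and 239 with EZH2i and 417, 411 and 419 with the combination, a change of 2.07 ± 0.12 (adjusted p = 2.0e-17) with both agents, and TCF7L2 rose by 0.54 ± 0.12 (adjusted p = 1.0e-04). With EZH2i the median was 0.90 for the 3 GATA cofactors and 0.61 for the 3 TCF and LEF factors, beside 0.03 over all genes.

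Developmental factors outside the 10 families were counted beside the members. Of 105, 36 were tested. With AKTi 6 rose and 3 fell, with EZH2i 15 and 5, and with the combination 17 and 8, with medians of 0.07, 0.13 and 0.48, beside 0.01, 0.03 and 0.06 over all genes. The members' medians were 0.23, 0.44 and 0.53. All-gene shares called were 20.6% higher and 21.9% lower, 32.6% and 31.5%, and 38% and 35.2%, and no difference between these groups was tested. FOXD1, a kidney stroma factor, went from 6.56, 5.98 and 11.9 normalized counts in DMSO to 289.6, 311 and 262 with the combination (5.07 ± 0.23, adjusted p = 6.6e-21), FOXC1 rose by 3.36 ± 0.24 (adjusted p = 2.2e-15), and PROX1, of lymphatic vessels, from 0, 1.20 and 0 to 14.8, 18.5 and 27.1 (adjusted p = 6.8e-07). PROX1, near 0 in DMSO, passed the filter only through the tazemetostat arms, where it is high, so its call is no independent result.

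Markers of prostate and other cell types were measured in the same libraries. All 12 luminal markers were tested, and 11 rose and 1 fell with AKTi, 10 rose with EZH2i, and 11 rose and 1 fell with the combination, where the shares of all genes were 20.6% and 21.9%, 32.6% and 31.5%, and 38% and 35.2%. Their summed level was 76027 to 80031 normalized counts in DMSO, 120340.0 to 122689 with AKTi, 125689 to 132147 with EZH2i and 166703 to 171730.0 with the combination. TMPRSS2 rose by 3.62 ± 0.06, SLC45A3 by 2.75 ± 0.07 and KLK2 by 2.25 ± 0.06 with the combination (adjusted p = 2.1e-33, 5.6e-28 and 8.8e-29). HOXB13, a prostate homeobox factor named after its values were seen, was the marker that fell with the combination (-0.53 ± 0.06, adjusted p = 1.0e-10). Of 5 basal markers 4 were at 0 in every DMSO library and KRT5 in all 12 libraries; ITGA6 was tested and rose by 0.93 ± 0.09 (adjusted p = 5.3e-12). Of 6 neuroendocrine markers 1 was tested and not called, CHGB was at 0 in all 12 libraries, and the summed level was 29.3 to 38.2 in DMSO and 36.1 to 55.5 with the combination. Of 12 stromal, endothelial and blood markers 5 were tested and 4 rose with EZH2i, among them COL1A1 (1.59 ± 0.17), COL3A1 (1.29 ± 0.43) and ACTA2 (1.82 ± 0.42; adjusted p = 1.6e-10, 0.0083 and 2.7e-04). The list's summed level was 139 to 194 in DMSO, 163 to 196 with AKTi, 447 to 468 with EZH2i and 297 to 384 with the combination, with CD3E at 0 throughout. The part of these markers in the members' changes was not tested.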

How the data were processed

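Polyadenylated RNA of 12 libraries was measured, 3 per arm. The authors aligned reads to hg38 with STAR and deposited raw counts per gene from HTSeq (versions, annotation release and strand setting are not given in the sources used here; sequencing was at 1 of 2 centres, not assigned to libraries). The authors also deposited normalized counts, a signal in which each library's counts are divided by 1 DESeq2 size factor; levels in the text use it, and RPKM was computed from the deposited counts and gene lengths. Doses are from the study's methods.

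Counts were tested with edgeR 4.0.16 (R 4.3.3; TMM, filterByExpr with 10 counts as minimum, 1 mean per arm, quasi-likelihood test), adjusted by the Benjamini-Hochberg method over 16646 genes, threshold 0.05. Members, lists and tests were chosen with earlier results of these data known, and lists were written from general knowledge. Library values are given for the highest member per family, the up to 6 largest and smallest called changes per treatment, the up to 4 largest and smallest interactions, called members with a DMSO mean of 3 counts or fewer, and GATA2, GATA3, SOX2, SOX4 and SOX9; in other lists, the 3 largest called changes are named. Members with a DMSO mean of 3 counts or fewer are given as ratios of summed counts with exact 95% conditional binomial intervals, which cover counting error only. Scripts were tested on simulated data. Alternatives were DESeq2 1.42.0, other scalings and filters, a replicate block, the 6 libraries compared alone, and leaving out each library. The result of 1 tested member, counted in the totals, is not reported here.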

Additional observations from a re-analysis of the deposited data

Results flagged for a closer look

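The effect of AKTi differed with and without EZH2i for 10 of 43 tested members (the interaction, on the log2 scale; edgeR quasi-likelihood test, adjusted over all genes). It was called above 0 for 4.65% of the members and below 0 for 18.6%, beside 10.7% and 17.5% of all genes tested. The members were thus not called more often than genes in general. AKTi had a higher effect in the presence of EZH2i for GATA3, by 4.14 ± 1.32 (adjusted p = 0.016), and for SIX4, by 1.10 ± 0.11 (adjusted p = 1.1e-09). SIX4 held this under every alternative that gave a value, and GATA3 lost it without DMSO C or EZH2i C, at 3.28 to 3.50, adjusted p up to 0.15. GATA3 was tested only because its combination libraries, where it is high, passed the filter, so its interaction is no independent result. The AKTi effect was lower in the presence of EZH2i for TBX10 (-1.31), PAX1 (-0.87), DLX1 (-0.79), LHX9 (-0.74), SOX8 (-0.72), SOX4 (-0.42), TBX1 (-0.33) and SOX12 (-0.26). Of these, DLX1, SOX8, TBX1 and SOX12 lost the call under at least 1 alternative, with the values given beside each gene in the results. With 3 libraries per arm no arm was searched for an outlying library.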

How the results depend on the processing

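The count of members called stayed within 1.5 times its value in all 6 comparisons under every alternative run. Leaving out 1 library at a time gave 10 to 12 members called with AKTi, 21 to 26 with EZH2i, 26 to 28 with the combination, 18 to 21 for the combination against AKTi, 12 to 16 against EZH2i and 7 to 11 for the interaction. Replicate letters did not pair the libraries (correlations of deviations from arm means, -0.0583 to 0.0688); with the replicate block the counts were 12, 25, 28, 20, 16 and 10, against 12, 25, 28, 21, 16 and 10 without it. Of 112 called member values none changed sign, 83 kept their call under every alternative that gave a value, and 29 lost it under at least 1; leaving out a library caused 82 of the 107 losses, DESeq2 3, library-size scaling 4, upper-quartile scaling 3, keeping every gene with at least 1 count 9, and requiring 10 counts in every library 3. The cause was not tested. DESeq2 gave no adjusted p for the GATA3 interaction. Of 146 uncalled values, 27 passed the threshold under at least 1 alternative. Members detected in DMSO, AKTi, EZH2i and the combination numbered 35, 35, 39 and 42 at a mean of at least 10 counts and 29, 28, 30 and 28 at 30 counts. Depth limits what can be said of the 34 untested members.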
